A study of Arabidopsis thaliana with 53 samples.

Results

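The 10 genes described here make, convert or cleave carotenoids, and they were chosen by gene identifier from the 27501 genes of a leaf count table: PSY (AT5G17230), PDS (AT4G14210), ZDS (AT3G04870), CRTISO (AT1G06820), LYC (AT3G10230), LUT2 (AT5G57030), NPQ1 (AT1G08550), ABA1 (AT5G67030), NCED3 (AT3G14440) and CCD4 (AT4G19170). All 10 were found in the table, and they were listed by identifier with earlier results of these data known. The table holds mRNA of leaves from 53 single Arabidopsis thaliana plants, most of them descended by selfing from M1 plants grown on 160 µM etoposide, an inhibitor of topoisomerase II that leaves DNA breaks. The variegated line gave 1 white plant, 3 green plants with variegated progeny and 10 green plants without variegated progeny. In the virescent, short-internode dwarf and BR-like dwarf lines 6 plants with the phenotype came from 2 M2 families and 4 relatives without it from another family, so family and phenotype cannot be told apart in these lines. Each library is 1 plant, and the genotype of each plant at the lesions of its line was not used here. The 9 DMSO plants descend from M1 plants that received the solvent alone, in 3 lines named C13, C23 and C4_8 with 3 plants each.

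Carotenoids are made in plastids, where they harvest light, quench excess excitation and supply the precursor of the hormone abscisic acid. Phytoene synthase (PSY) makes phytoene, the first committed intermediate. Phytoene desaturase (PDS) and zeta-carotene desaturase (ZDS), with the carotene isomerase CRTISO, turn phytoene into lycopene, and the electrons they remove pass to plastoquinone. IMMUTANS (IM, AT4G22260), a plastid terminal oxidase, returns plastoquinol to plastoquinone, and immutans mutants have white sectors in which phytoene accumulates. Lycopene beta-cyclase (LYC) and lycopene epsilon-cyclase (LUT2) close the rings and stand at the branch between the xanthophyll cycle and lutein. Violaxanthin de-epoxidase (NPQ1) and zeaxanthin epoxidase (ABA1) run that cycle in opposite directions. NCED3, a 9-cis-epoxycarotenoid dioxygenase known for its induction by drought, makes the first precursor that is particular to abscisic acid, and CCD4 cleaves carotenoids in plastoglobules.

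The genes lie apart from each other on TAIR10.1. CRTISO (chr1:2092946-2096784, minus strand, 13 exons in its longest transcript) and NPQ1 (chr1:2706868-2709988, plus strand, 5 exons) are on chromosome 1. ZDS (chr3:1342455-1346387, plus strand, 14 exons), LYC (chr3:3164075-3166038, minus strand) and NCED3 (chr3:4831286-4834015, minus strand) are on chromosome 3. PDS (chr4:8190190-8195320, minus strand, 15 exons) and CCD4 (chr4:10481619-10483879, plus strand) are on chromosome 4. PSY (chr5:5659554-5662997, minus strand, 8 exons), LUT2 (chr5:23077120-23080096, plus strand, 11 exons) and ABA1 (chr5:26753469-26757402, minus strand, 16 exons) are on chromosome 5. LYC, NCED3 and CCD4 have 1 exon each. ATCTA, a promoter element described for PSY and PDS in Arabidopsis, was searched on both strands from 250 bases before to 50 bases after each gene start and was present in 6 of the 10 genes, against 54.0% of 27561 such windows of the genome. It was not present in the windows of PSY, LYC, NPQ1 and ABA1. The G-box CACGTG, whose reverse complement is the same sequence, was in 0 of the 10 windows, against 7.65% of all. The 3 stretches of 30 bases printed here, from RefSeq's TAIR10.1, are of PDS, which was inside the range of the green plants in the white plant, LUT2, which was lower in green plants of the variegated line than in DMSO plants, and CCD4, which differed most between the white plant and the green plants. Each is on the strand of its gene, with capitals marking ATCTA or its reverse complement TAGAT.
PDS, chr4:8195357-8195386: cacagaattcatATCTAtttgacaccaact
LUT2, chr5:23076993-23077022: tagctacggcccATCTAtcgtagaagttgt
CCD4, chr4:10481625-10481654: aaccaatatttgTAGATtagaacttcacat
The motif starts 54 bases before the gene start in PDS, 115 before it in LUT2 and 19 after it in CCD4. A match is a description of the sequence, and these shares were near that of the genome.

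Libraries held 29739361 to 116654254 estimated counts (median 47326147), and the lowest count of any of the 10 genes in any library was 138. Levels are given as CPM (the count scaled by library size) after TMM normalization, which scales each library to the bulk of its genes. The mesophyll markers RBCS1A, CAB3 and LHCB2.1 summed to between 3737 and 29550 CPM, and the root markers to at most 0.828 CPM. The meristem gene STM was at 7.48 CPM in the white plant and averaged 7.41 CPM in BR-like dwarf plants (range 0.0 to 10.2 CPM), while it was at or near 0 elsewhere, and the flower markers AG, AP3 and PI summed to 11.1 CPM in the white plant and to at most 1.55 CPM in the others. In leaves a loss of 1 kind of cell and a loss of RNA within each cell cannot be told apart. DMSO replicate 2, short-internode dwarf relative replicates 1 and 2 and virescent relative replicate 4 are not in the mean normalized counts that the authors deposited. These libraries were left out of the main tests but kept in the levels. Short-internode dwarf relative replicate 2 had the lowest level of the 53 plants for PDS, ZDS, CRTISO, LYC, LUT2 and NPQ1 and the highest for NCED3.

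PSY was the most abundant of the 10 genes, with a median of 254 CPM over 53 plants, or 121 CPM per kilobase of its longest transcript. Per kilobase, ZDS (median 46.3 CPM), NPQ1 (44.3), CCD4 (41.9), PDS (41.2), LUT2 (33.3), ABA1 (31.4) and LYC (24.5) followed, with CRTISO at 14.8 and NCED3 at 5.26 CPM per kilobase. The genes of the desaturation steps varied least. CRTISO ranged from 25.2 to 48.8 CPM over all plants, PDS from 54.7 to 130 CPM and ZDS from 49.5 to 131 CPM, with coefficients of variation of 12%, 13.6% and 14.8%. LUT2 (23 to 103 CPM), PSY (56.4 to 370), LYC (15.4 to 75.4), NPQ1 (53 to 200) and ABA1 (28.7 to 137) had coefficients of variation of 23.5% to 29%. The cleavage enzymes varied most: CCD4 ranged from 10.9 to 470 CPM (74.8%) and NCED3 from 2.92 to 220 CPM (149%). For each gene the 10 groups were ranked by their median, which gives 90 pairs of neighbouring groups in the ranking. The ranges of the plants overlapped in all but 4 of these pairs, and in each of the 4 the lower group was the white plant.

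**Figure D1:**
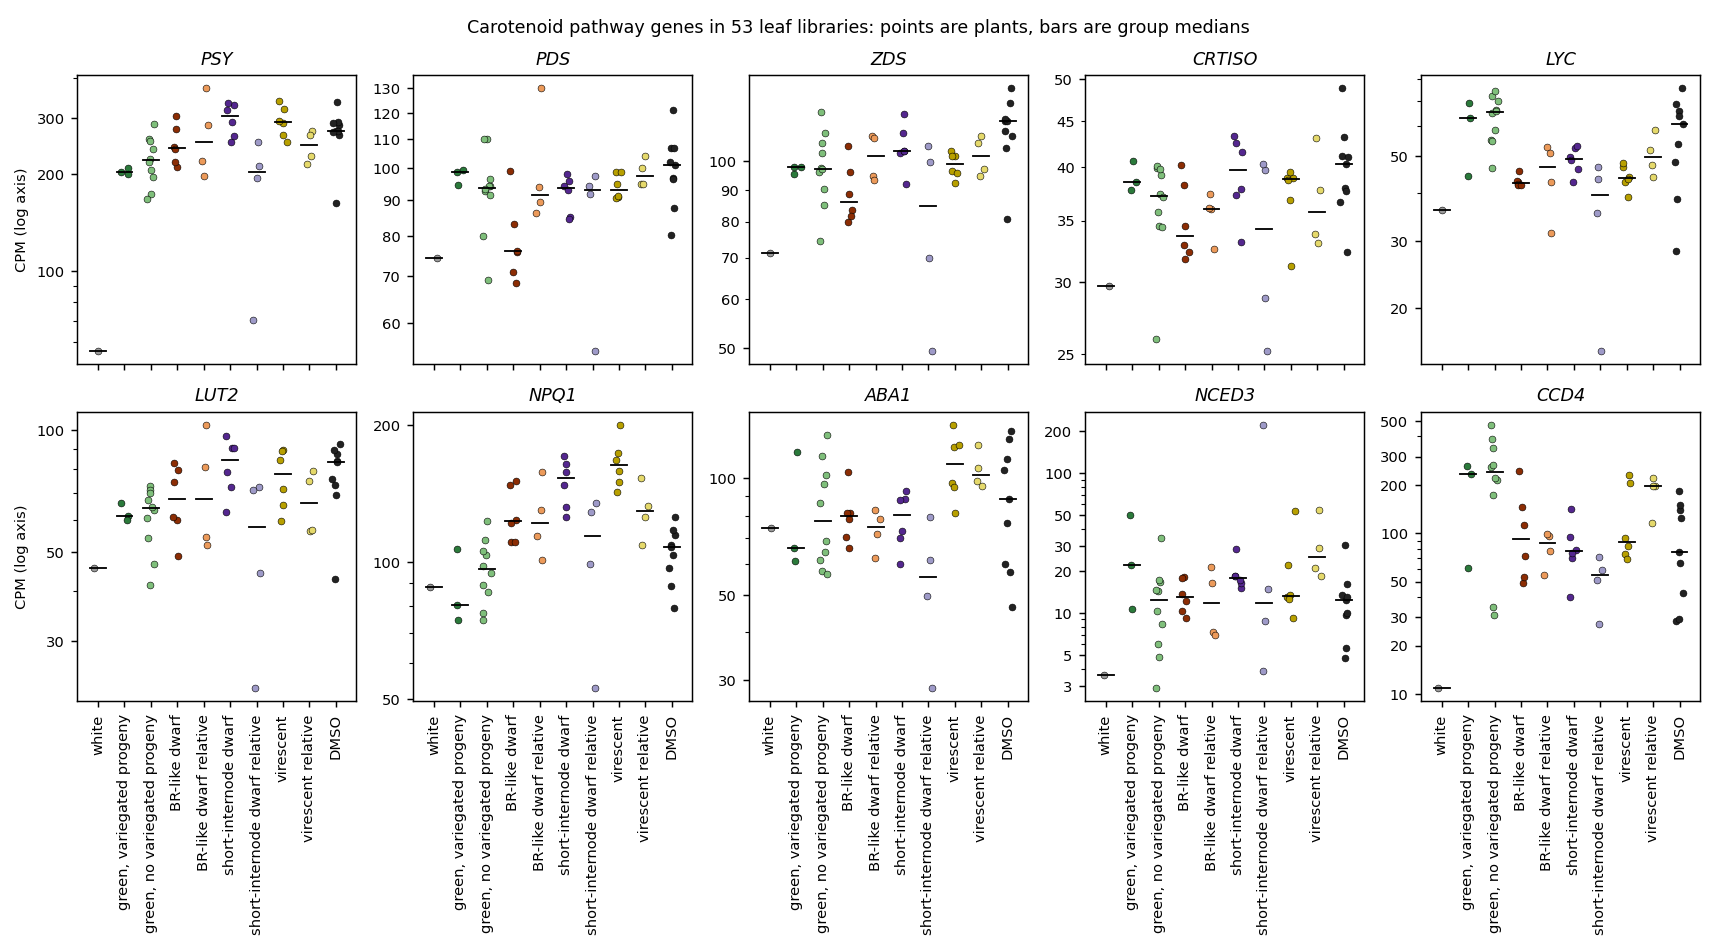
CPM (log axis) of the 10 carotenoid genes in each of 53 plants, by group, with bars at the group medians. The white plant is lowest in PSY (56.4 CPM) and CCD4 (10.9 CPM), and the desaturase genes PDS and ZDS and the isomerase gene CRTISO span narrow ranges in the other groups.

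The white plant of the variegated line was compared with the 13 green plants of that line to describe the pathway in a leaf where IM transcript was low. IM was at 12.6 CPM in the white plant and between 31.8 and 68.1 CPM in the green plants, a difference of -1.95 on the scale of log2(CPM + 1) (SD of the green plants 0.34, n = 13). Of the carotenoid genes, PSY, NCED3 and CCD4 were more than 2-fold lower in the white plant and 0 were more than 2-fold higher. With 1 white plant there is no replicate check and no test. Of 17313 genes with at least 1 CPM in at least 4 of these 14 plants, 15.1% were more than 2-fold lower and 9.45% more than 2-fold higher, so shifts of this size were common in this leaf. PSY, ZDS, LYC and CCD4 lay below all green plants, as did 27.3% of all genes, and 0 of the 10 lay above all of them, as did 23% of all genes tested.

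PSY was at 56.4 CPM in the white plant. It was at 209, 203 and 200 CPM in the 3 green plants with variegated progeny and ranged from 168 to 286 CPM (median 221) in the 10 without. The white plant was thus far outside the green range, with a log2 difference of -1.92 (SD of the green plants 0.22). PDS, the next enzyme, was at 74.3 CPM against 69.2 to 110 CPM, inside the range, with a log2 difference of -0.33 (SD 0.17). ZDS, at 71.1 CPM, lay just below the lowest green plant at 74.5 CPM (log2 difference -0.45, SD 0.17). CRTISO, at 29.7 CPM, lay inside the range of 26 to 40.7 CPM (log2 difference -0.30, SD 0.16). The white plant is of family 5A_58, and these ranges pool 3 families. The 5 green plants of 5A_58 were at 93.2 to 110 CPM for PDS, 90.2 to 107 for ZDS and 37.8 to 40.7 for CRTISO. The white plant lay below all 5 in each of these genes and in PSY (200 to 240 CPM). The share of all genes below these 5 plants was not counted. The count of PSY divided by that of PDS was 0.759 in the white plant and 2.01 to 2.74 in the green plants. Over the other 52 plants of the series it ranged from 1.29 to 3.94 (median 2.68), with short-internode dwarf relative replicate 2 at 1.29 and all others at 2.01 or above. This ratio was chosen after the levels had been seen and needs no normalization between libraries.

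**Figure D2:**
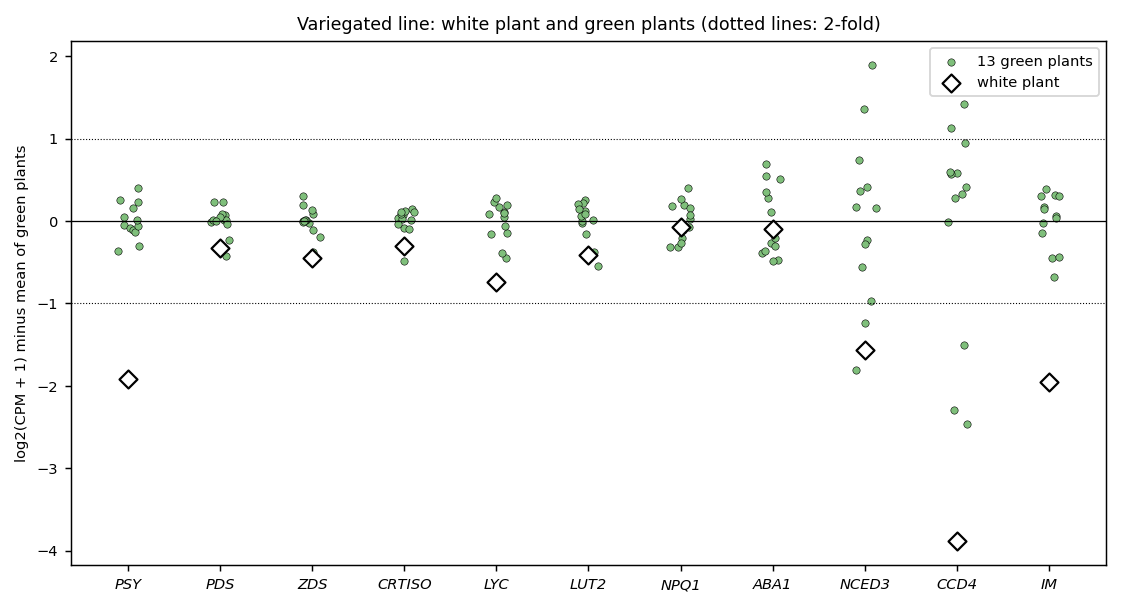
Difference in log2(CPM + 1) from the mean of the green plants for the 10 genes and IM in the white plant (diamond) and the 13 green plants (dots) of the variegated line, with dotted lines at 2-fold. PSY (-1.92), CCD4 (-3.89) and IM (-1.95) lie far below the green plants, while PDS, CRTISO, LUT2, NPQ1, ABA1 and NCED3 lie within the range of all 13. Against the green plants of the white plant's own family (5A_58), PDS, CRTISO, LUT2 and NCED3 lie below the range, and NPQ1 and ABA1 lie inside it.

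**Figure D3:**
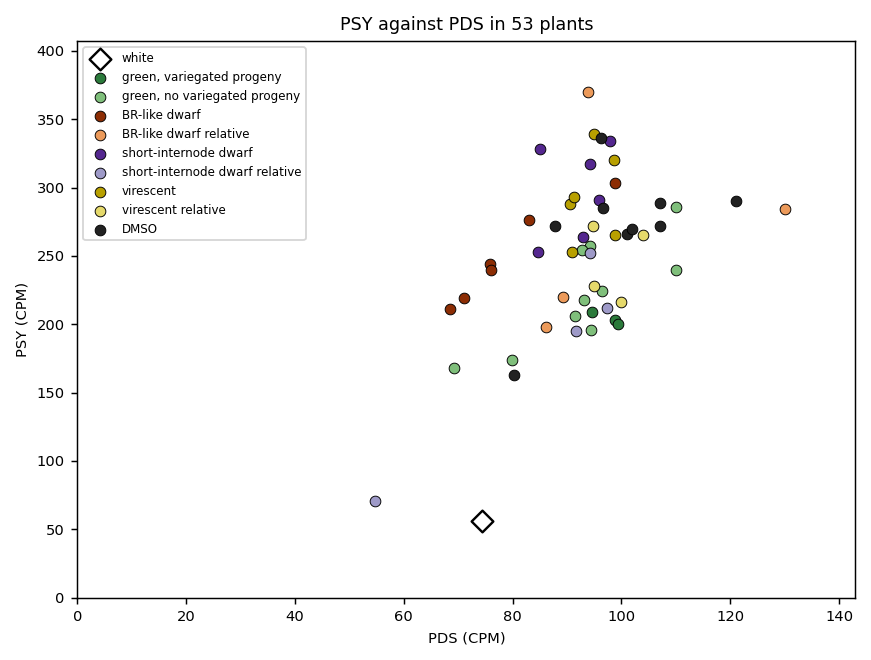
PSY against PDS (CPM) in each of 53 plants, coloured by group, with the white plant as a diamond. The white plant has a PDS level (74.3 CPM) within the cloud of the other plants and the lowest PSY level (56.4 CPM), and short-internode dwarf relative replicate 2 is low in both.

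After lycopene, LYC was at 36.2 CPM in the white plant, below the 44.5 to 74.3 CPM of the green plants (log2 difference -0.74, SD 0.23), and LUT2 was at 45.5 CPM, inside 41.4 to 72.8 CPM (log2 difference -0.41, SD 0.23). Against its own family, 5A_58, LUT2 lay below the green plants (59.8 to 67.1 CPM). Both genes of the xanthophyll cycle were close to the green mean. NPQ1 was at 88.4 CPM against 74.6 to 123 CPM (log2 difference -0.08), and ABA1 at 74.3 CPM against 56.5 to 129 CPM (log2 difference -0.10). CCD4 showed the largest difference of the 10 genes, at 10.9 CPM in the white plant against 30.9 to 470 CPM in the green plants (log2 difference -3.89, SD 1.26). NCED3 was at 3.64 CPM, a level that 1 green plant (2.92 CPM) fell below, and its log2 difference of -1.57 was set against an SD of 1.02. That green plant is of family 5A_2, and the green plants of family 5A_58 were at 8.38 to 50.1 CPM. Total-count scaling raised all genes of the white plant (median shift 0.27 on the log2 scale). PSY (-1.64), NCED3 and CCD4 stayed more than 2-fold lower under it, ZDS and LYC came inside the green range, and NPQ1 and ABA1 changed sign to 0.20 and 0.17.

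Of the other genes of the pathway, those that supply isoprenoid precursors come first. Of 10 supply genes, 4 lay below all green plants and 1 above, beside 27.3% and 23% of all genes tested. HDS, a late enzyme of the plastid isoprenoid pathway, was at 209 CPM against 322 to 643 CPM, and DXS, which begins that pathway, was at 94.8 CPM against 133 to 219 CPM. Of 7 further carotenoid enzymes, 3 lay above all green plants and 1 below, beside the same shares. The beta-ring hydroxylase genes BETA-OHASE_1 (80.9 CPM against 22.7 to 49.6) and BETA-OHASE_2 (9.24 CPM against 0.154 to 2.58) were higher, as was the isomerase gene Z-ISO (26.7 CPM against 13.8 to 25.8), while ABA4, needed for neoxanthin, was lower (7.92 CPM against 13.6 to 20.7). Of 4 regulators, 1 lay above all green plants and 1 below, beside the same shares. HY5, a light-signalling factor known to activate PSY, was at 21.2 CPM, above the 0.889 to 13.0 CPM of the green plants. OR was at 35.0 CPM, below their 36.7 to 68.9 CPM, and OR-like and PIL5 were inside the range. Beside these values, the phloem gene SUC2 was at 71.2 CPM against 285 to 623 CPM, and CAB3 at 47.6 CPM against 82.1 to 1009 CPM. The epidermal gene ATML1 was also below all green plants, and STM, AG, AP3 and PI were above them. The guard-cell genes went different ways. KAT1 was below all green plants, FAMA above them (43.4 CPM against 16.3 to 30.3) and MYB60 inside their range (4.06 CPM against 2.23 to 9.32). RBCS1A and the other epidermal gene, KCS10 (230.0 CPM against 91.5 to 329 CPM), were inside the green range. Their part in the levels of the carotenoid genes was not tested.

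The green plants with variegated progeny were then compared with those without, to ask whether green leaves of plants that carry the trait differ. The plants with variegated progeny are all of family 5A_58, while most of those without are of families 5A_2 and 5A_3 (4 plants each). Family and trait are thus largely confounded in this comparison. The test was edgeR's quasi-likelihood test, and called means an adjusted p under 0.05 whatever the fold. Of the 10 carotenoid genes 0 were called, against 1.93% of 19750 genes tested. None had an unadjusted p below 0.05, DESeq2 also called 0, and the lowest adjusted p was 0.56. PSY was at 204 ± 4.3 CPM (SD, n = 3) against 222 ± 37.9 CPM (SD, n = 10), and PDS at 97.6 ± 2.62 against 93.1 ± 12.1 CPM. The ranges of the 2 groups overlapped for all 10 genes. The largest difference was in NCED3, at 10.7, 50.1 and 21.9 CPM in plants with variegated progeny and 2.92 to 34.4 CPM (median 12.3) in those without, a log2 fold change of 1.09 with an adjusted p of 0.56 by edgeR. IM differed by -0.38 on the log2 scale (adjusted p = 0.449) and was not called.

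Of the other pathway genes, CYP707A1 and CYP707A3, which inactivate abscisic acid, were called higher in plants with variegated progeny, with log2 fold changes of 3.55 (SE 0.65, adjusted p = 0.00473) and 5.24 (SE 0.84, adjusted p = 0.00204) by edgeR. Both calls rest on 1 plant. CYP707A3 was at 1.88, 408 and 20.9 CPM in the 3 plants and 1.41 to 7.87 CPM in the 10 others, and CYP707A1 at 3.65, 125 and 3.95 CPM against 1.53 to 7.95 CPM. Replicate 2 of the plants with variegated progeny held the high values, and it was also the highest green plant for NCED3 (50.1 CPM) and the lowest for LYC (44.5 CPM) and HY5 (0.889 CPM). Without it, the log2 fold change of CYP707A3 was 1.55 (adjusted p = 0.997) and that of CYP707A1 was -0.01 (adjusted p = 0.999), and the test called 0 of all genes in place of 381.

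Green plants of the variegated line were also compared with 8 DMSO plants. PSY was lower in both kinds of green plant. It was at 204 ± 4.3 CPM (SD, n = 3) in those with variegated progeny against 285 ± 22.4 CPM (SD, n = 8) in DMSO plants, where the 8 plants ranged from 266 to 336 CPM and did not overlap the green plants, as held for 3 of the 10 genes and for 10.3% of all genes. The log2 fold change was -0.49 (SE 0.14, adjusted p = 0.0466, edgeR), and 1 of 10 genes was called, against 6.32% of all genes, where 1249 genes were called with replicate 2 of the plants with variegated progeny and 14 without it. In plants without variegated progeny PSY was lower by a log2 fold change of -0.36 (SE 0.10, adjusted p = 0.0221), with 1 of the 10 plants (286 CPM) reaching into the DMSO range. LUT2 was lower in them as well, at 61.2 ± 10.6 CPM (SD, n = 10) against 81.9 ± 8.31 CPM (SD, n = 8), a log2 fold change of -0.42 (SE 0.10, adjusted p = 0.0151). These 2 of 10 genes compare with 12.7% of all genes. Both comparisons share the DMSO plants. CCD4 was at 30.9 to 470 CPM (median 240) in plants without variegated progeny and 29.2 to 182 CPM in the 8 DMSO plants, and its log2 fold change of 1.23 did not pass the test (adjusted p = 0.0908, edgeR). DESeq2 called CCD4 and ZDS beside PSY and LUT2. DXS, which supplies the pathway, was lower in both, by log2 fold changes of -0.50 (adjusted p = 0.0444) and -0.30 (adjusted p = 0.0496, edgeR). CYP707A1 was higher in plants with variegated progeny (3.46, adjusted p = 0.00968, edgeR), but at -0.10 without their replicate 2. CYP707A3 was lower in plants without variegated progeny (-2.32, adjusted p = 0.0318, edgeR), a call lost in 6 of 21 fits that left out 1 plant. In each comparison 2 of 30 other pathway genes tested were called, beside 6.32% and 12.7% of all genes. Of the mesophyll markers LHCB2.1 was lower too (log2 fold changes -1.15 and -1.06), while CAB3 (-1.21 and -0.64) and RBCS1A (-0.90 and -0.50) were not called, and their part in these results was not tested. The call of PSY in plants with variegated progeny was lost in 14 of 21 fits that left out 1 plant (adjusted p up to 0.158). It was kept only without DMSO replicate 5 or without replicate 1, 3, 4, 5, 6 or 7 of the plants without variegated progeny. In the latter plants PSY lost its call without DMSO replicate 7 (adjusted p = 0.0554), and DXS lost its calls in 12 and 17 of 21 such fits. With DMSO replicate 2 put back, 0 of the 10 genes were called in either comparison. At the study's threshold, an adjusted p below 0.01 and more than 2-fold, 0 of the 10 genes were called in these 3 comparisons by edgeR or DESeq2, against 0.825%, 0.486% and 0.223% of all genes in the order given.

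**Figure D4:**
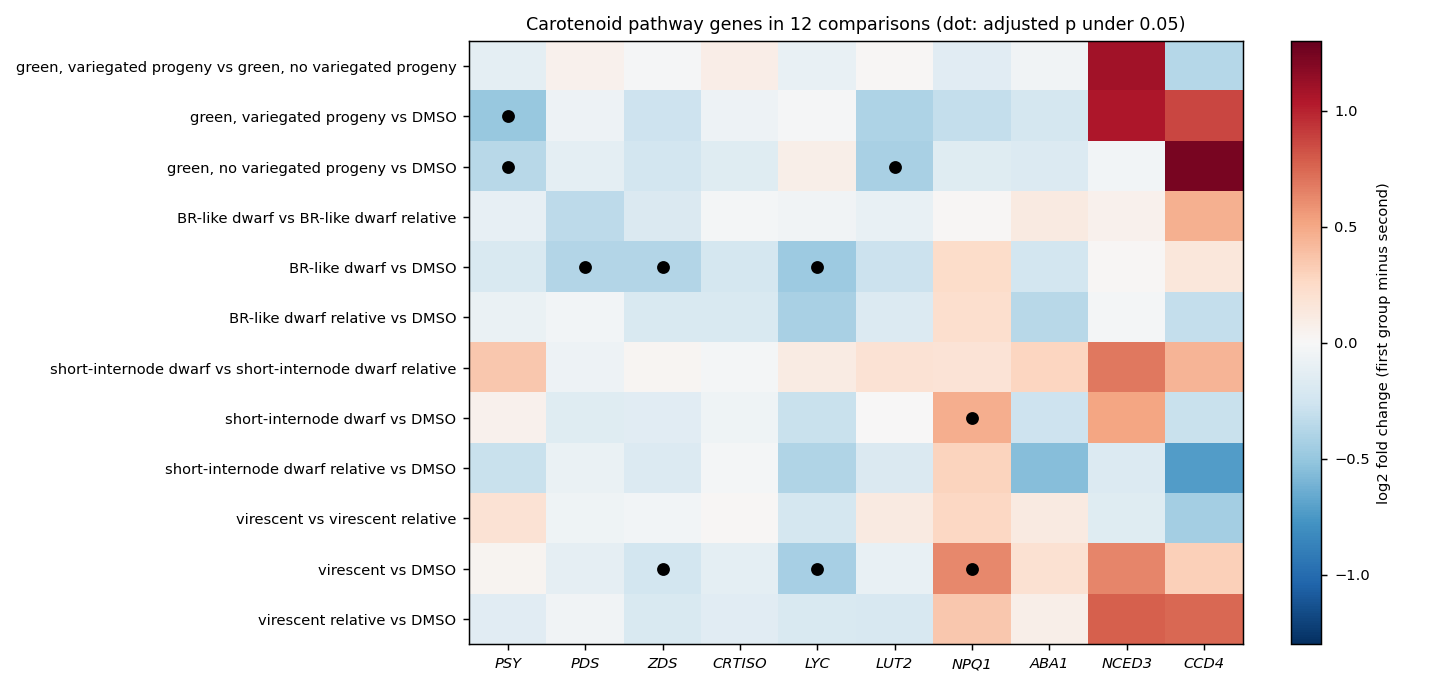
Log2 fold change (first group minus second) of the 10 carotenoid genes in 12 comparisons, with a dot where the adjusted p of edgeR was below 0.05. The 10 dots are all in comparisons with DMSO plants, and the comparisons of plants with and without a phenotype in the same line have none.

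In the BR-like dwarf line the phenotype was set first against relatives and then against DMSO plants. Against relatives 0 of 10 genes were called, against 2.0% of 19521 genes tested, a share that rests on 390 genes, or 46 without relative replicate 4. PDS alone had an unadjusted p below 0.05, at 78.9 ± 11 CPM (SD, n = 6) against 99.7 ± 20.1 CPM (SD, n = 4), with a log2 fold change of -0.34 and an adjusted p of 0.164 by edgeR, and DESeq2 also called 0. Against DMSO plants PDS, ZDS and LYC were lower, and CRTISO and LUT2 were not called. ZDS had a median of 86.2 CPM and a highest value of 106 CPM in 6 dwarfs, against 116 ± 8.25 CPM (SD, n = 8), a log2 fold change of -0.38 (SE 0.08, adjusted p = 0.00464). PDS was lower by the same -0.38 (SE 0.11, adjusted p = 0.0243), and LYC, within 42.0 to 45.7 CPM in the dwarfs, by -0.47 (SE 0.14, adjusted p = 0.0299, edgeR) from 59.4 ± 11.9 CPM (SD, n = 8). These 3 of 10 genes compare with 14.3% of all genes, and the ranges overlapped for each. In the relatives ZDS was at 102 ± 8.87 CPM and LYC at 44.5 ± 9.78 CPM (SD, n = 4), and 0 genes were called against DMSO plants by edgeR or DESeq2, as were 0.0102% of all genes. ZDS, CRTISO and LYC had an unadjusted p below 0.05 there. At the stricter threshold 0 genes were called in the 3 comparisons, against 0.0871%, 2.67% and 0.0% of all genes.

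The calls of the dwarfs against DMSO plants did not hold in each M2 family alone: 1 gene (ZDS) was called for the first family and 0 for the second, each with 3 plants. PDS lost its call without dwarf replicate 2, 3, 5 or 6, and LYC without dwarf replicate 3, 5 or 6 or DMSO replicate 4, 8 or 9, while ZDS kept its call when any plant was left out. With the replicate number as a block, PDS, ZDS and LYC all lost their calls (adjusted p = 0.0637, 0.0652 and 0.214, edgeR). Of 30 other pathway genes tested against DMSO plants 4 were called, all lower, a share near that of all genes (14.3%): HDS (log2 fold change -0.47, adjusted p = 0.00768), the carotene beta-hydroxylase gene CYP97A3 (-0.41, adjusted p = 0.0161), CRTISO-like (-0.51, adjusted p = 0.0422) and CYP707A3 (-2.40, adjusted p = 0.0188) were lower by edgeR. CRTISO-like lost its call in 10 of 18 fits that left out 1 plant. Against relatives, GGPS1, which makes the precursor that PSY uses, was lower (82.1 ± 13.2 against 131 ± 34.7 CPM, log2 fold change -0.68, SE 0.15, adjusted p = 0.0248), and this call was lost without relative replicate 4 (-0.55, adjusted p = 0.108), in 6 of 18 such fits in all, and with the replicate number as a block. Of the mesophyll markers, CAB3 and LHCB2.1 rose against DMSO plants (log2 fold changes 2.64 and 1.88) and RBCS1A was not called (-0.20), and STM averaged 7.41 CPM in dwarfs (range 0.0 to 10.2 CPM), 0.00462 CPM in relatives and 0.0 CPM in DMSO plants. Their part was not tested.

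In the short-internode dwarf line NPQ1 was the only carotenoid gene called, and only against DMSO plants. It was at 171, 148, 126, 158, 164 and 132 CPM in the 6 dwarfs and at 129 and 135 CPM in the 2 relatives tested. In the 8 DMSO plants it ranged from 88.8 to 126 CPM (median 108). The ranges met at 126 CPM, with a log2 fold change of 0.47 (SE 0.09, adjusted p = 0.00402, edgeR). This 1 of 10 compares with 17.2% of 19243 genes tested. Against relatives 0 genes were called by edgeR or DESeq2, against 0.12% of all genes, and PSY alone had an unadjusted p below 0.05 (298 ± 33.8 CPM in 6 dwarfs against 232 ± 28.2 CPM in 2 relatives, log2 fold change 0.35, adjusted p = 0.396 by edgeR, with no overlap, as in 17.6% of all genes). The relatives against DMSO plants gave 0 calls among the 10 and 0.0% among all genes by edgeR, though PSY and NPQ1 had an unadjusted p below 0.05, as had 3525 of all genes. DESeq2 also called 0 of the 10. At the stricter threshold 0 of the 10 were called in the 3 comparisons, against 0.026%, 1.56% and 0.0% of all genes. With the left-out libraries put back, the call of NPQ1 was lost.

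The virescent line had the highest NPQ1 median of the 10 groups, with a range that overlapped the next, the short-internode dwarfs. The 6 plants were at 159, 143, 168, 150, 174 and 200 CPM, all above the 8 DMSO plants (88.8 to 126 CPM, with 4.38% of all genes likewise apart), and the 3 relatives tested were at 126, 153 and 133 CPM, overlapping them. Against DMSO plants NPQ1 rose by a log2 fold change of 0.62 (SE 0.09, adjusted p = 0.000278, edgeR), and the call was kept in every alternative run, with adjusted p up to 0.0403. Against relatives the log2 fold change was 0.27 with an adjusted p of 0.12 by edgeR. ABA1, which acts in the opposite direction in the xanthophyll cycle, was at 109 ± 21 CPM (SD, n = 6) in virescent plants against 94.5 ± 28.6 CPM (SD, n = 8) in DMSO plants, and the log2 fold change of 0.20 had an adjusted p of 0.456 by edgeR. ZDS (98.7 ± 4.53 against 116 ± 8.25 CPM, log2 fold change -0.24, SE 0.06, adjusted p = 0.0188) and LYC (44.1 ± 3.23 against 59.4 ± 11.9 CPM, log2 fold change -0.43, SE 0.13, adjusted p = 0.0272, edgeR) were lower. These 3 of 10 genes compare with 18.9% of 19317 genes tested. Within either M2 family alone NPQ1 was the only call, and LYC lost its call without virescent replicate 1, 3 or 4 or DMSO replicate 9.

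Between virescent plants and relatives 0 of 10 genes were called by edgeR or DESeq2, where 17.1% of all genes were, and NPQ1 alone had an unadjusted p below 0.05 by edgeR. Relatives against DMSO plants gave 0 calls by edgeR, against 2.91% of all genes (562 genes, or 68 without relative replicate 2), with ZDS and NPQ1 past 0.05 before adjustment, and NPQ1 was called by DESeq2. At the stricter threshold 0 were called in the 3 comparisons, against 2.95%, 2.73% and 0.223% of all genes. Of 30 other pathway genes tested between virescent plants and relatives 6 were called, 4 higher and 2 lower, a share near that of all genes. DXS (278 ± 44.1 against 194 ± 18.6 CPM, log2 fold change 0.51, adjusted p = 0.0196), ABA2, which acts after NCED3 (16.5 ± 1.93 against 9.82 ± 2.05 CPM, 0.75, adjusted p = 0.00376), and Z-ISO (0.42, adjusted p = 0.0352) were higher by edgeR. CYP707A3 (-2.54, adjusted p = 0.0256), CYP707A1 (-1.70, adjusted p = 0.0104) and IM (42.8 ± 5.98 against 56.7 ± 3.83 CPM, -0.41, adjusted p = 0.016) were lower. For DXS, Z-ISO, ABA2, CYP707A1, CYP707A3 and IM the 6 virescent plants did not overlap the 3 relatives, as in 27.9% of all genes. The ABA2 and CYP707A1 calls were kept when any plant was left out, while DXS, Z-ISO, CYP707A3 and IM lost theirs in 2, 5, 4 and 1 of 17 such fits, with the highest adjusted p without relative replicate 1 for DXS (0.113) and IM (0.0949), replicate 3 for Z-ISO (0.128) and replicate 2 for CYP707A3 (0.0862). Of 8 other settings, CYP707A1 lost its call in 3 (replicate block, first M2 family alone, 1 fit over all groups) and ABA2 in 0. Virescent plants had more CAB3 and LHCB2.1 than DMSO plants (log2 fold changes 3.22 and 2.69) and than relatives (2.21 and 1.60), and short-internode dwarfs more than DMSO plants (2.42 and 1.22). RBCS1A was called in none of these (0.30, 0.54 and 0.27). Their part in the rise of NPQ1 was not tested.

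Across these lines a test of the difference between contrasts found 0 of 10 genes whose change from relatives to phenotype differed between lines, with adjusted p of at least 0.242 by edgeR, where 0.177%, 9.34% and 1.95% of 20328 genes were called for BR-like against short-internode dwarf, BR-like dwarf against virescent and short-internode dwarf against virescent. Over the 4 lists of other pathway genes (10 supply genes, 7 further carotenoid enzymes, 14 of cleavage and abscisic acid, of which 9 were tested, and 4 regulators), the called genes of the short-internode dwarfs against DMSO plants were 1 supply gene higher and 1 lower, 1 further enzyme lower, 1 cleavage gene higher and 1 lower, and 2 regulators lower. These 7 of 30 genes tested compare with 17.2% of all genes. Of them, HY5 (2.74 ± 1.18 against 6.63 ± 3.68 CPM, log2 fold change -1.28, adjusted p = 0.042) and CRTISO-like (-0.50, adjusted p = 0.0313) fell most and CYP707A1 rose most (1.27, adjusted p = 0.0486), and these calls were lost in 12, 7 and 12 of 16 fits that left out 1 plant. IM was lower in short-internode dwarfs (-0.31, adjusted p = 0.0165) and in virescent plants (-0.34, adjusted p = 0.0112, edgeR) than in DMSO plants. Both calls were kept when any plant was left out, but were lost in 5 and 4 of 10 other settings. Virescent plants also had less BETA-OHASE_1 (-0.64, adjusted p = 0.024), CYP707A4 (-1.70, adjusted p = 0.0253) and CYP707A3 (-2.40, adjusted p = 0.0145) and more ABA2 (0.53, adjusted p = 0.00364) and IPP1 (0.32, adjusted p = 0.00921) than DMSO plants. Of 10 other settings, these calls were lost in 5, 4, 4, 1 and 4 in the order given. In virescent plants against DMSO plants 6 of 30 list genes tested were called, beside 18.9% of all genes. The medians of the 10 carotenoid genes lay between -0.24 (BR-like dwarf against DMSO) and 0.18 (short-internode dwarf against relatives), where the medians of all genes lay between -0.03 and 0.02.

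The 3 DMSO lines differed from each other in the genes that varied most. CCD4 was at 42.5, 28.4 and 29.2 CPM in the plants of C13. It was at 139, 75.9 and 150 CPM in C23 and at 65.4, 182 and 125 CPM in C4_8, so that C13 overlapped neither. ABA1 was lower in C13 as well, with a median of 57.2 CPM against 105 to 132 CPM in C23 and 76.5 to 112 CPM in C4_8, and LYC at 28.2 to 48.3 CPM against 60.7 to 65.9 and 53.8 to 75.4 CPM. NCED3 was at 4.75 to 9.73 CPM in C13 against 12.5 to 30.9 and 10.0 to 16.2 CPM. The genes called changed with the DMSO plants used, in an alternative chosen after seeing the data. The fits against C13 alone used all its plants, including DMSO replicate 2, which the main tests left out. Against C13 alone the virescent plants had higher ABA1, CCD4 and NPQ1, and LYC changed sign in BR-like dwarf (0.17, adjusted p = 0.571) and virescent plants (0.20, adjusted p = 0.385). Without C13 the short-internode dwarfs had 4 calls (PDS, LYC and ABA1 lower, NPQ1 higher). The M2 families of the variegated line also differed. PSY, which was called in that line, was at 224 to 286 CPM in family 5A_2 and 168 to 206 CPM in family 5A_3, with no overlap. CCD4 was at 213 to 470 CPM in family 5A_3 and 30.9 to 260 CPM in family 5A_2, and NCED3 at 14.4 to 34.4 CPM and 2.92 to 10.3 CPM. The share of all genes that lay apart between these DMSO lines or M2 families was not counted. Whether these genes differ more than others is thus not known.

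**Figure D5:**
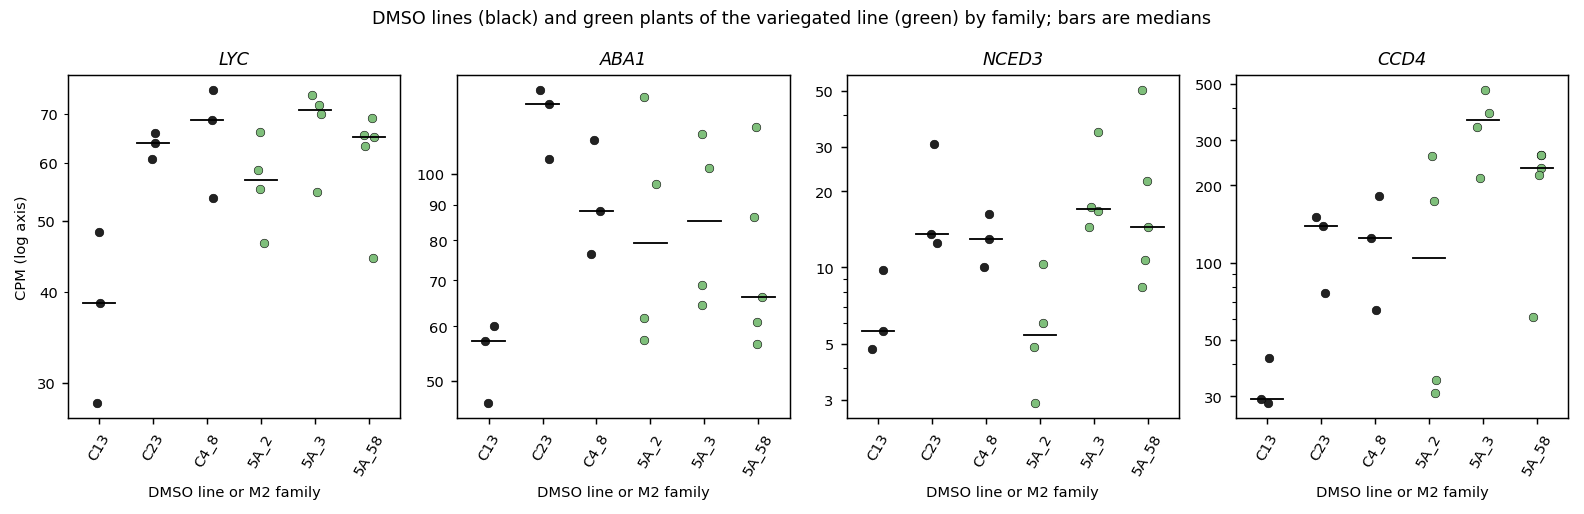
CPM (log axis) of LYC, ABA1, NCED3 and CCD4 in the plants of the 3 DMSO lines and in the green plants of the variegated line by M2 family, with bars at the medians. Line C13 lies below C23 and C4_8 in all 4 genes, and family 5A_2 has the lowest NCED3 and CCD4 medians of the variegated line.

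Within groups, the levels of some of the 10 genes went together. Spearman's rho was taken over 52 libraries after subtracting each group's mean of log2(CPM + 1), and was compared over 17288 other genes with a mean of at least 1 CPM. It is given as a description, since plants of a group share a line and a family and each library's depth is common to all its genes. LUT2 was the gene of the 10 most like PSY (rho 0.90), ranked 14 among all genes for PSY, while PSY ranked 3 for LUT2. ZDS and CRTISO (rho 0.74), PDS and ZDS (0.72) and PDS and CRTISO (0.68) went together, and for CRTISO the gene ZDS ranked 7. NPQ1 went with PSY (0.70). Among ABA1, NCED3 and CCD4 the rho was 0.60 between ABA1 and CCD4, 0.54 between ABA1 and NCED3 and 0.45 between NCED3 and CCD4. Many other genes were closer to them: CCD4 ranked 469 and NCED3 826 for ABA1, and CCD4 ranked 1809 for NCED3. NCED3 ran against PSY (-0.53). LYC was most like CCD4 (0.62) among the 10. Over all genes, AT1G11860, a glycine cleavage T-protein (rho 0.94), PnsB1 of the chloroplast NADH dehydrogenase-like complex (0.93) and ACR11 (0.92) were most like PSY, and AT5G08650 and AT1G12800 preceded PSY for LUT2 (0.91 and 0.90). AT4G33500, AT4G18810 and EX1 were most like PDS (0.84, 0.79 and 0.77), ATATH8, EMB1030 and PMDH2 most like ZDS (0.85, 0.82 and 0.81), and AT3G05350, ATAB2 and KEA1 most like CRTISO (0.79, 0.79 and 0.75). For LYC these were AT5G13770, NFU3 and CH1, the chlorophyllide a oxygenase (0.83, 0.82 and 0.81), for NPQ1 the thylakoid kinase gene STN8, AT3G23700 and CRR1 (0.90, 0.89 and 0.87), and for ABA1 the plastid sigma factor gene SIGE, MDAR4 and ARD4 (0.87, 0.84 and 0.84). ATSIK, AT1G27200 and AT2G37520 were most like NCED3 (0.84 each), and AT4G35750, JAC1 and PDAT most like CCD4 (0.88, 0.86 and 0.85).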

How the data were processed

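Leaf mRNA was sequenced from 53 plants. The authors trimmed reads with Trim Galore and made estimated counts per gene with Salmon, against Araport11 transcripts with Col-CEN as decoy, from stranded libraries; the deposited estimated counts are not normalized, and 9.27% of the values are not whole. The authors' deposited tables of 3 comparisons come from DESeq2 and hold fold changes and p-values that were not used here. Their signal column, the mean normalized count as deposited, served only to find the libraries in the authors' fits. Of 1160 sets of left-out libraries tried for each line, the best gave median errors of 0.0978% (BR-like dwarf), 0.53% (short-internode dwarf) and 0.448% (virescent), and the next best 0.72%, 1.42% and 0.693%. This found 4 of the 5 libraries that the authors removed, and the fifth was not found. No column was left without a sample (0).

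Counts were rounded and tested with edgeR 4.0.16 in R 4.3.3 (quasi-likelihood, TMM, prior count 0.125), keeping a gene if 4 or more libraries of the fit reached 10 normalized counts, in 4 fits of 3 groups each (12 comparisons), with Benjamini-Hochberg adjustment over all genes tested. The SE of a fold change is its size over the square root of F and restates the test. DESeq2 1.42.0, RLE scaling, no filter on low counts, all libraries, each M2 family, 1 fit for all groups, the replicate number as a block and leaving out each plant were alternatives. The test was checked on simulated data. Samples with the same replicate number went together in BR-like dwarf plants and relatives (correlation of deviations 0.106 to 0.465 in 4 of 4 pairs, from the data and not the labels). They also did so in short-internode dwarf relatives and DMSO plants (0.281 to 0.357), with 2 pairs only. In the remaining comparisons the correlations were of mixed sign or below 0. Python 3.11.15, numpy 2.4.6, pandas 2.3.3 and matplotlib 3.10.9 did the rest. Symbols and positions are from RefSeq on TAIR10.1, to which all identifiers used matched.

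The members and gene lists were chosen with earlier results of these data known. Named are the 10 genes, IM, up to 3 rises and 3 falls among called genes of the pathway lists per comparison, and the 3 genes most like each member, with 1 plant and some list genes in the white plant chosen after their values were seen. The labels were kept where a table of the study gives 1 virescent plant as a relative and where the study's methods give another generation for DMSO plants. Labels name separate plants, and depth covers counting error only.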

Additional observations from a re-analysis of the deposited data

Results flagged for a closer look

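Each of the 10 genes and IM was searched in each group of 4 to 10 plants for a plant far from the rest, 88 searches in all. With normally distributed levels and independent searches, chance would mark about 1 in 20. That rate cannot be applied here, since NCED3 levels were skewed (median 14.4 CPM, highest 220 CPM) and the genes were searched in the same plants. There were 11 such values, in 8 plants. NCED3 gave 5 of them: short-internode dwarf relative replicate 2 (220 CPM, the others 3.86 to 14.8), virescent replicate 6 (53.3 CPM, the others 9.2 to 21.9), the green plant without variegated progeny replicate 6 (34.4 CPM, the others 2.92 to 17.3), DMSO replicate 5 (30.9 CPM, the others 4.75 to 16.2) and short-internode dwarf replicate 2 (28.6 CPM, the others 15.2 to 18.5). In the same short-internode dwarf relative, PDS was low (54.7 CPM, the others 91.7 to 97.4), and in the same green plant CRTISO was low (26 CPM, the others 34.4 to 40.1). DMSO replicate 2 was low in PSY (163 CPM, the others 266 to 336) and LUT2 (42.8 CPM, the others 69.0 to 92.7). CRTISO was low in virescent replicate 5 (31.2 CPM, the others 36.9 to 39.5), and LYC was high in BR-like dwarf replicate 1 (45.7 CPM, the others 42.0 to 43.1).

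Of the other pathway genes, the change from relatives to phenotype differed between the BR-like dwarf and virescent lines for GGPS1 (difference -0.69 on the log2 scale, adjusted p = 0.0488) and PIL5, a light-signalling repressor of PSY (1.18, adjusted p = 0.0463), in 1 edgeR fit over the 10 groups. These 2 of 31 pathway genes compare with 9.34% of all genes.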

How the results depend on the processing

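The 4 comparisons within a line kept 0 calls among the 10 genes under every alternative run. Counts against DMSO plants moved with the settings. BR-like dwarf (3 calls) gave 0 with the replicate block, 1 and 0 within the first and second M2 family, 2 with all libraries (LYC lost), 2 against C13 alone (ABA1 and CCD4 in place of the 3), and 1 to 4 when single plants were left out. Short-internode dwarf (1) gave 0 with all libraries, 4 without DMSO line C13, 2 against C13 alone (NCED3 and CCD4, with NPQ1 lost at an adjusted p of 0.0621), and 1 to 2 when plants were left out, and its relatives (0) gave 1 without C13. Virescent (3) gave 1 with all libraries, with the replicate block and within each family, and 2 to 3 when plants were left out, and its relatives (0) gave 1 by DESeq2, 1 without C13 and 3 against C13 alone, where CCD4 was also the 1 call at the stricter threshold in any alternative. Green plants with variegated progeny (1) gave 0 with all libraries, RLE, no filter, and without or against C13 alone, 2 within family 5A_58, and 0 to 1 when plants were left out. Green plants without (2) gave 0 with all libraries, within 5A_58 and against C13 alone, 4 by DESeq2 and in 1 fit of all groups, and 1 to 3 when plants were left out. Against C13 alone, LYC changed sign to 0.17 (BR-like dwarf) and 0.20 (virescent), and the difference of ZDS in virescent plants went to 0.0. These settings leave smaller groups, and C13 alone includes DMSO replicate 2, which the main tests left out. The cause was not tested. Against DMSO plants the block removed the calls of PDS, ZDS and LYC in BR-like dwarf and of ZDS and LYC in virescent plants, in green plants with variegated progeny it replaced PSY by CCD4, and in those without it added CCD4 (3 calls). Outside BR-like dwarf plants and relatives, correlations of plants with the same number ran from -0.566 to 0.631. In the white plant 3 genes were past 2-fold under every alternative, and 3 lay below all green plants under RLE and 2 under total counts. DMSO line C13 alone or left out was chosen after seeing the data.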
